A study of Arabidopsis thaliana with 36 samples.

Results

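The genes described here were those shared by the endodermis and the cortex of the Arabidopsis thaliana root, the pair of layers that make up the ground tissue. Of 22746 probe sets on the array that are not controls, 214 were members. A probe set was a member when, on the arrays of roots kept on standard medium, the lower of its endodermis and cortex means was at least 1.0 on the log2 scale above the highest mean of the other 4 populations. Means were taken over 3 arrays of log2(signal + 16), and this difference is called the margin. The 6 populations were protoplasts sorted by flow cytometry from roots of ecotype Columbia seedlings, 6 days after germination, each from a line in which GFP marks one part of the root. The lines were SCR::GFP for the endodermis together with the quiescent centre, CORTEX for the cortex, WER::GFP for the epidermis together with the lateral root cap, PET111 for the columella, WOL::GFP for the stele and S32 for the protophloem. Each population was measured on 3 arrays after 1 h on 140 mM NaCl and on 3 arrays after standard medium alone, 36 arrays in 12 groups, so a reporter line and a population cannot be told apart. The study asked how the response to salt depends on cell identity along the radial axis of the root.

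The endodermis and cortex arise by an asymmetric division of a shared initial cell at the root tip. The transcription factors SHORT-ROOT and SCARECROW set up this division, and zinc finger proteins of the INDETERMINATE DOMAIN family, among them JACKDAW (JKD), act with them. The endodermis goes on to build the Casparian strip and suberin, which seal the path between cells to the stele, while the cortex is the broad layer outside it. Salt reaches the endodermis only after it has passed the epidermis and cortex.

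Exactly 1 gene was assigned to 97 members, several to 7 members and none to 110 members, which are given by counts. The 97 genes were grouped by product, with their names in view, into specialised metabolism (17), regulators and signalling (15), defence and stress (10), cell wall and secreted proteins (7), transport (4) and other or unknown (44). All 214 members passed the filter on low signal, as did 17630 probe sets in all. Because the standard arrays chose the members, levels on standard medium and every difference that involves them are descriptions. Tests compared the 18 salt arrays with each other, and the choice did not use these. The spread in the tests was estimated from all 36 arrays, so the standard arrays that chose the members enter it.

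Arrays had been scaled to a common trimmed mean, and their medians lay between 62.0 and 95.6. Several arrays stood apart over the members, and 2 of them most often. The stele array of replicate 3 on standard medium was the highest of its group for 195 of 214 members, against 38.3% of all probe sets tested, by a median of 1.55 on the log2 scale over the members. The cortex array of replicate 3 with salt was the lowest of its group for 170 members, against 37.7% of all probe sets, by a median difference of -0.84. Counts of members that rest on either array are given with and without it. Without that stele array the rule itself gave 269 members, 213 of them among the 214. Among the reporters only the gene of the CORTEX line could be checked. That gene, AT1G09750, had a signal of 23.0 ± 17.0 in endodermis and 235 ± 27.2 in cortex with salt, against 31.1 ± 20.0 in endodermis and 2650.0 ± 413 in cortex on standard medium (mean ± SD, n = 3 each). It was thus highest in cortex on both media and is not a member.

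On the salt arrays the members as a set kept a higher level in the ground tissue. The mean of endodermis and cortex was above the mean of the other 4 populations for 188 of 214 members (87.9%), where 22.6% of all probe sets tested were called in that direction (limma, Benjamini-Hochberg adjusted p under 0.05). In the same test 0 members were below it, and 0 at an unadjusted p under 0.05, where 24.3% of all probe sets tested were called below. The median difference over the members was 1.78 on the log2 scale, against -0.04 over all probe sets. In sorted bulk cells, more cells of a type and more RNA per cell cannot be told apart. Replicates carry a number in the labels but no word on separate cultures, so these p-values measure the spread between arrays, which may be technical.

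A stricter reading asked for both layers to be above each of the other 4 populations, in 8 separate differences. This held for 70 members (32.7%), where 1.11% of all probe sets were called. Endodermis was above each of the other 4 for 93 members, where 3.55% of all probe sets were called, and cortex for 109 members, where 9.01% were called. At least 6 of the 8 differences were called for 133 members, where 4.25% of all probe sets had as many, and 6 members had none, where 52.7% of all probe sets had none. The 6 ground tissue arrays with salt all lay above the 12 arrays of the other populations for 85 members, where 1.69% of all probe sets showed this. Without the cortex array of replicate 3 with salt, 73 members were above each other population in both layers and 121 in cortex, 139 had at least 6 differences called, and 97 showed no overlap. Fewer arrays overlap less, and shares of all probe sets were not computed without this array. The count of 70 fell to 45 without the stele array of replicate 1 with salt.

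**Figure D1:**
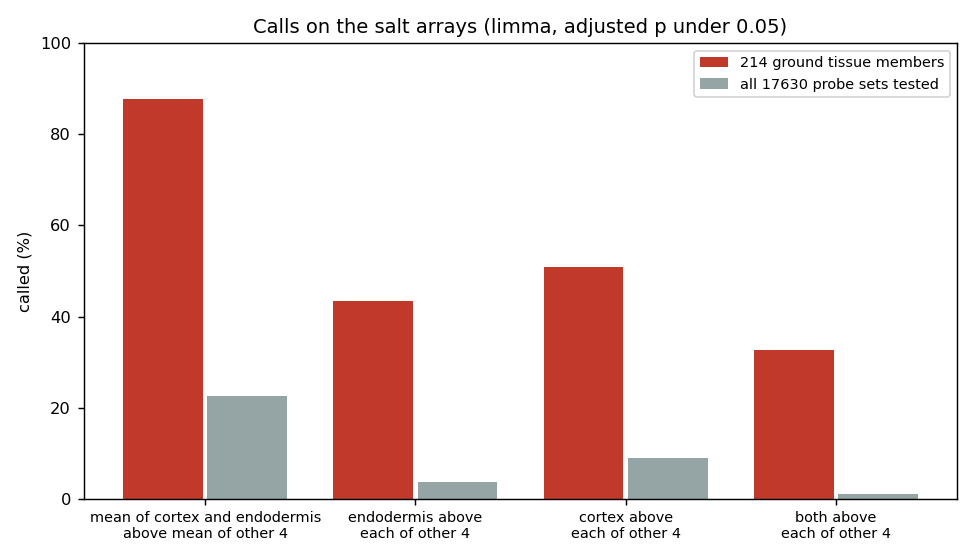
Share of probe sets called on the salt arrays (y axis, percent, from 0 to 100) for 4 comparisons (x axis), with the 214 members in red on the left and all 17630 probe sets tested in grey on the right. The red bars stand at 87.9% for the mean of both layers and at 32.7% for both layers above each other population, against grey bars at 22.6% and 1.11%.

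The margin itself was smaller with salt, which is a description, since the choice favours wide margins on standard medium. Its median over the members was 0.72 on the salt arrays, against the 1.46 that the choice on standard medium gave. With salt 165 members (77.1%) still had both layers above all others, where 12.4% of all probe sets did, and 81 (37.9%) had a margin of at least 1.0, where 1.11% of all probe sets did. Without the cortex array of replicate 3 these counts were 172 and 88. Margins with salt ranged over the members from -2.48 to 3.90. At the threshold, among probe sets with 1 gene, UGT76E1 lay just inside and DPL1 just outside. Their margins were -0.45 and 0.41 with salt, against 1.01 and 1.00 on standard medium.

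**Figure D2:**
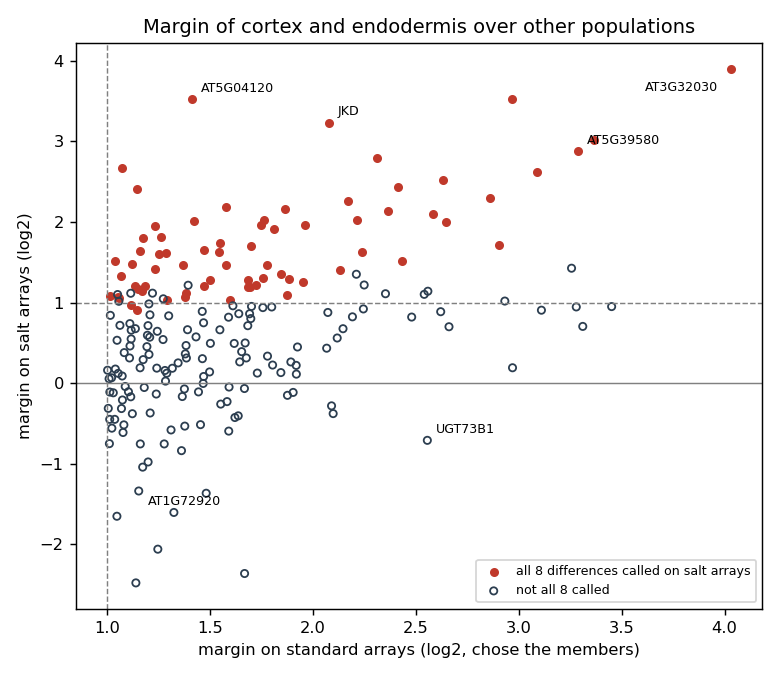
Margin of each of the 214 members with salt (y axis, log2) against its margin on standard medium (x axis, log2, which chose the members), with filled red points where all 8 differences were called with salt. The 81 points above the upper dashed line keep a margin of at least 1.0, among them AT3G32030 at 3.90 and JKD at 3.23, and 49 points lie at 0 or below.

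Among the 15 regulators and signalling proteins, 12 were above the mean of the other populations with salt and 5 were above each of them in both layers. Over all members these shares were 87.9% and 32.7%, and over all probe sets 22.6% and 1.11%. The same shares apply to the product groups below, and no group was tested against them. JKD, which takes part in patterning the ground tissue and holds back the movement of SHORT-ROOT, was among the 5. Its signal with salt was 233, 187 and 155 on the endodermis arrays and 286, 229 and 152 on the cortex arrays, against 0.978 to 9.12 (median 3.86) on the 12 arrays of the other populations. On standard medium it was 174, 146 and 166 in endodermis and 283, 224 and 163 in cortex, against 1.35 to 40.7 (median 10.2) in the others. The layers and the other populations did not overlap on either medium. With salt the log2 difference was 3.42 ± 0.17 (SE, adjusted p = 3.75e-15), and the difference between endodermis and cortex was not called (-0.17 ± 0.28, adjusted p = 0.668). JKD was one of the members whose margin was wider with salt, 3.23 with salt against 2.08 on standard medium.

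GH3.3, an enzyme that joins auxin to amino acids and whose transcript auxin induces, had a signal with salt of 712, 465 and 724 in endodermis and 1279, 1017 and 546 in cortex. In the other populations with salt it was 2.16 to 508 (median 183). On standard medium the values were 289, 273 and 425 in endodermis and 1307, 1833 and 1580.2 in cortex. Endodermis was thus higher and cortex lower with salt, in both cases without overlap of the 3 arrays. The ground tissue was above the mean of the others with salt by 2.40 ± 0.37 (log2, SE, adjusted p = 6.15e-06), and 6 of its 8 differences were called.

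AT3G16800, a protein phosphatase of the 2C family, had signals with salt of 2892, 2248 and 3057 in endodermis and 6055, 4675 and 2544 in cortex, against 91.9 to 1793 (median 417) in the other populations. On standard medium these were 854, 1039 and 544 in endodermis and 761, 1316 and 1035 in cortex, against 16.5 to 296 (median 90.0) in the others. Both layers were higher with salt without overlap of their arrays, and the stele was higher too, at 1289.6, 1541 and 1793 with salt and 66.6, 60.1 and 296 on standard medium. Its ground tissue difference with salt was 2.83 ± 0.33 (log2, SE, adjusted p = 6.45e-08). The protein kinase AT5G11020 stood at 486, 655 and 1729 in endodermis and 267, 249 and 223 in cortex with salt, against 21.9 to 115 (median 61.3) in the others. All 8 of its differences were called, and it was one of the members higher in endodermis than in cortex.

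**Figure D3:**
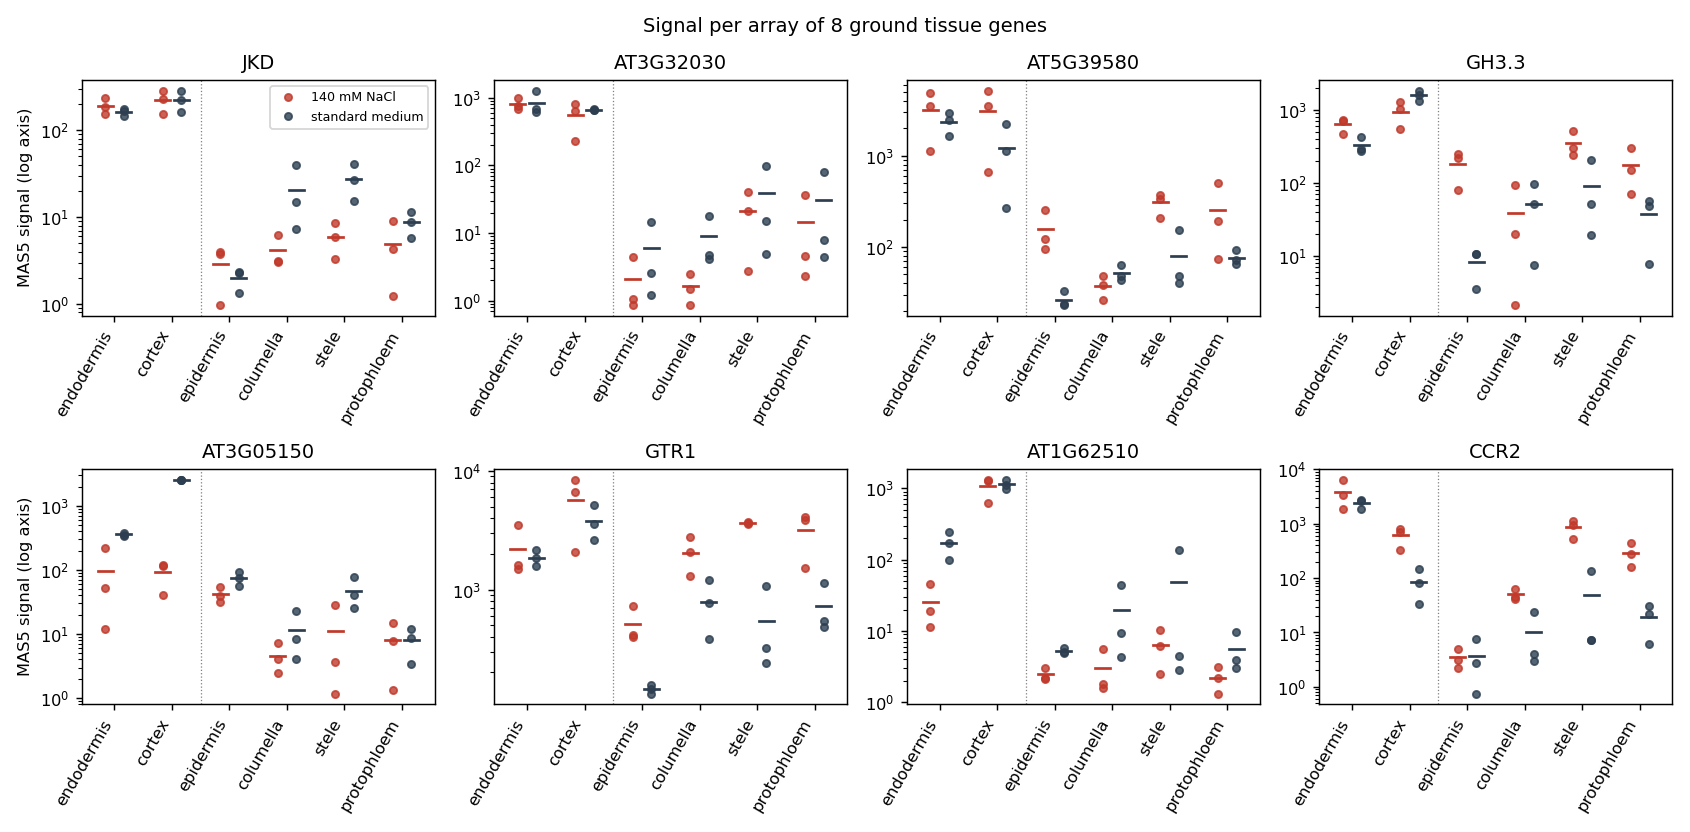
Signal of 8 members on each array (y axis, MAS5 signal, logarithmic) in the 6 populations (x axis), with red points for 140 mM NaCl left of dark points for standard medium and a bar at each mean of 3 arrays. The dotted line sets endodermis and cortex apart from the rest. JKD and AT3G32030 stay high left of the line on both media, AT3G05150 is lower in both layers with salt, and GTR1 is higher right of the line with salt.

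The 17 genes of specialised metabolism held the widest margin of all members. With salt 16 of them were above the mean of the other populations and 8 were above each in both layers. AT3G32030, of the terpene synthase family, had a signal with salt of 769, 673 and 1011 in endodermis and 798, 645 and 227 in cortex, against 0.865 to 40.6 (median 2.61) in the others. On standard medium it was 673, 609 and 1278 in endodermis and 668, 685 and 664 in cortex, against 1.21 to 98.3 (median 6.37). The groups did not overlap on either medium, and the difference with salt was 4.80 ± 0.33 (log2, SE, adjusted p = 2.52e-12), a 27.8-fold ratio on the log2(signal + 16) scale. Terpene synthases form a large family, so related transcripts may contribute to this probe set.

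AT5G36160, of the tyrosine aminotransferase family, showed 1614, 2888 and 1807 in endodermis and 911, 1216 and 606 in cortex with salt, against 1.84 to 212 (median 73.6) in the others, a difference of 4.47 ± 0.34 (adjusted p = 2.27e-11). On standard medium its layers were at 2013, 1411 and 3144 in endodermis and 1613, 1614 and 1431 in cortex. AT1G06640, of the 2-oxoglutarate dioxygenases, stood at 1957, 3203 and 1301 in endodermis and 5928, 5308 and 3013 in cortex with salt, against 140.1 to 581 (median 284) in the others. For both genes all 8 differences were called. UGT73B1, an enzyme that attaches sugar to small molecules, kept 4 of 8. Its signal with salt was 656, 498 and 924 in endodermis, 341, 139 and 314 in cortex and 398, 382 and 467 in stele, against 518, 527 and 418 in endodermis, 517, 436 and 391 in cortex and 26.6, 25.3 and 259 in stele on standard medium. The stele arrays with salt thus reached above those of the cortex, and the margin was -0.71 with salt and 2.56 on standard medium. UGT76E1, the member with 1 gene nearest to the threshold, was not called with salt (0.43 ± 0.29, adjusted p = 0.223).

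Of the 10 defence and stress genes, 8 were above the mean of the others with salt and 2 above each in both layers, the peroxidase AT5G39580 and the glutathione transferase GSTU27. For GSTU27 the number called ran between 5 and 8 over the alternatives, and leaving out epidermis replicate 1 or 2, any cortex replicate, stele replicate 1 or 2, or protophloem replicate 1 or 2, each with salt, or fitting the salt arrays alone, gave fewer than 8. AT5G39580 had signals with salt of 3491, 4837 and 1139 in endodermis and 3481, 5162 and 666 in cortex, against 26.5 to 503 (median 157) in the other populations. On standard medium they were 2949.8, 2468 and 1641 in endodermis and 266, 1123 and 2233 in cortex, against 23.3 to 152 (median 48.2). With salt the arrays within each layer differed several-fold, yet the lowest of them lay above the highest of the others, and the difference was 4.01 ± 0.40 (log2, SE, adjusted p = 2.65e-09). MSRB6, which repairs oxidised methionine, was at 489, 667 and 551 in endodermis and 603, 523 and 329 in cortex with salt, against 1729, 1142 and 979.8 in endodermis and 873, 862 and 1881 in cortex on standard medium. It was lower with salt in both layers without overlap, while still 2.11 ± 0.26 above the mean of the others (adjusted p = 1.94e-07).

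Proteins with a TIR domain, a module of plant immune receptors, made up 4 of these 10 genes. AT1G72900, AT1G72920 and AT1G72940 lie close together, with 1 coding gene between each neighbouring pair in the RefSeq annotation of assembly TAIR10.1, and AT2G32140 lies elsewhere. Their sequences were not compared here, so signals of these relatives may share transcripts. AT2G32140 had the smallest margin with salt of all members with 1 gene, -1.37. With salt it was at 191, 226 and 191 in endodermis and 158, 123 and 71.7 in cortex, and the protophloem was at 696, 302 and 145. On standard medium it was at 446, 305 and 184 in endodermis, 42.7, 164 and 380.1 in cortex and 27.5, 26.8 and 35.1 in protophloem. Its ground tissue difference with salt was 0.65 ± 0.34 (adjusted p = 0.116). AT1G72920 was called at 0.75 ± 0.30 (adjusted p = 0.0383), a call that 11 alternatives ended, with adjusted p between 0.0136 and 0.128 over all of them. The arrays whose removal ended it were epidermis replicate 3, columella replicate 1, cortex replicates 2 and 3, endodermis replicates 2 and 3, stele replicate 1 and protophloem replicate 3, all with salt. A pseudocount of 1, quantile normalization and the GAPDH ratio of each array as a covariate ended it too.

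All 7 genes of cell wall and secreted proteins were above the mean of the others with salt, where 87.9% of all members were. Of the 7 genes 2 were above each other population in both layers. The lipid transfer protein relative AT4G22460 was one of them, with 7 of 8 called without endodermis replicate 3 with salt. It stood at 292, 369.8 and 1025 in endodermis and 1800.4, 2217 and 1660.0 in cortex with salt, against 9.39 to 212 (median 55.1) in the others. Its difference was 3.64 ± 0.30 (adjusted p = 6.47e-11). On standard medium the layers stood at 1713, 1553 and 2641 in endodermis and 2852, 3037 and 2131 in cortex, so the endodermis was lower with salt without overlap. AT4G20860, of the berberine bridge enzyme family, showed 1737, 1769.8 and 792 in endodermis and 3518, 2989.9 and 1019 in cortex with salt, against 51.9 to 752 (median 459), a difference of 2.50 ± 0.35 (adjusted p = 9.89e-07).

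The 4 transport genes were all above the mean of the others with salt, where 87.9% of all members were. Of their 8 differences 2, 3, 6 and 7 were called. AT3G05150, of the sugar transporter family, had a signal of 52.2, 11.9 and 221 in endodermis and 116, 40.8 and 119 in cortex with salt. On standard medium it was 337, 382 and 356 in endodermis and 2521, 2545 and 2571 in cortex. Its cortex difference between salt and standard medium, -4.67 ± 0.47 (log2, SE), was the lowest of any member, and in endodermis it was -2.29 ± 0.47. The other sugar transporters of the group, named after their values were seen, were lower in cortex too, with differences of -2.41 ± 0.42 for AT1G19450 and -1.64 ± 0.29 for AT1G54730. In both layers all salt arrays of these 3 genes lay below all standard arrays.

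The glucosinolate transporter GTR1, the remaining gene of the group, differed from these. With salt its signal was 1602, 1488 and 3542 in endodermis and 8474, 6710.1 and 2061 in cortex, and in stele it was 3587, 3665 and 3714. On standard medium it was 1586, 2153 and 1838 in endodermis, 2629.7, 3570.0 and 5216 in cortex and 321, 242 and 1081 in stele. Its margin was -0.84 with salt and 1.36 on standard medium. The ground tissue difference with salt, 0.81 ± 0.31 (adjusted p = 0.0321), was lost under 6 alternatives, with adjusted p between 0.00277 and 0.137 over all of them. Leaving out columella replicate 3, cortex replicate 1 or 2, endodermis replicate 3 or protophloem replicate 2, each with salt, ended this call, as did quantile normalization.

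Among the 44 genes of other or unknown product, 43 were above the mean of the others with salt and 17 above each in both layers. AT5G04120 had the second widest margin with salt among members with 1 gene, 3.53, from signals of 1717, 2839 and 3171 in endodermis and 1854, 2639 and 1217 in cortex against 3.79 to 295 (median 58.5) in the others. AT3G22240 stood at 2509, 4135 and 3382 in endodermis and 18041, 16335 and 2883 in cortex with salt, against 159.9 to 1180.2 (median 543). Its cortex array of replicate 3 was far below the other 2. AT5G19240, AT4G03610, AT1G61740 and AT5G38790 also had all 8 differences called, with ground tissue differences of 3.41 ± 0.33, 2.16 ± 0.24, 2.09 ± 0.24 and 1.71 ± 0.35. For AT5G38790 the number called ran between 3 and 8, with fewer than 8 in the salt arrays alone, with a pseudocount of 64, with quantile normalization, or without columella replicate 1 or 2, cortex replicate 2 or 3, endodermis replicate 3, any stele replicate, or protophloem replicate 1 or 2, each with salt. Without endodermis replicate 2, AT5G19240 had 7, and without endodermis replicate 3, AT1G61740 had 7, both with salt. AT5G38790 had signals with salt of 21.2, 13.7 and 256 in endodermis and 11.5, 66.3 and 63.4 in cortex, against 304, 266 and 206 in endodermis and 281, 206 and 82.1 in cortex on standard medium. In endodermis 1 salt array lay within the range of the standard arrays.

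The remaining genes with wide margins on standard medium kept part of the 8 differences. AT5G08240, AT5G40450, AT3G59710 and AT1G17300 had 7 called, and AT5G12340 and AT5G02230 had 3. Over the alternatives the number ran between 5 and 8 for AT5G08240, 6 and 8 for AT3G59710 and 7 and 8 for AT1G17300. For AT5G40450 it ran between 6 and 7, with fewer than 7 under 25 alternatives. With salt AT5G02230 was 2236, 2545 and 1522 in endodermis and 5743, 5624 and 1241 in cortex, and 2016, 3683 and 448 in columella and 1962, 1222 and 1126 in protophloem. On standard medium its other populations were at 60.8 to 371 (median 196). All 8 differences were called for 34 of the 110 members without a gene name, 2 of the 7 with several genes and 34 of the 97 with 1 gene.

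With salt 30 members were higher in endodermis than in cortex and 27 lower, where 12.7% and 16.4% of all probe sets were called, so these counts of 214 were near the background. The median difference was -0.07 over the members and -0.08 over all probe sets. The count lower in endodermis ran between 15 and 46 when single arrays were left out. It was 46 without cortex replicate 3, 15 without cortex replicate 2 or endodermis replicate 1, and 16 without cortex replicate 1, each with salt. Of the 30, 25 (83.3%) were also higher in endodermis on standard medium, as were 85.6% of all probe sets called in that direction, and of the 27, 25 (92.6%) were lower there, as were 68.1%. These shares were not tested against each other.

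Members higher in endodermis included CCR2, a cinnamoyl-CoA reductase of the route to lignin precursors. With salt its signal was 3384, 6474 and 1826 in endodermis and 811, 690.4 and 332 in cortex, a difference of 2.55 ± 0.53 (log2, SE, adjusted p = 0.000743), and on standard medium 2681, 1862 and 2600.5 in endodermis and 32.9, 82.2 and 144 in cortex. The layers did not overlap on either medium. Its stele arrays were at 931, 1139 and 531 with salt and 7.39, 7.33 and 133 on standard medium, and the margin with salt was -0.52. GAT1_2.1, a protein with a glutamine amidotransferase domain, was at 2541, 3426 and 1612 in endodermis and 469.6, 459 and 251 in cortex with salt (2.62 ± 0.73, adjusted p = 0.00864).

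The TIR domain genes AT1G72940 and AT1G72920 were likewise higher in endodermis with salt, by 3.02 ± 0.55 (adjusted p = 0.000167) and 2.04 ± 0.49 (adjusted p = 0.0025). AT1G72940 stood at 424, 295 and 1709 in endodermis and 33.9, 57.5 and 105 in cortex with salt, against 946, 1173 and 652 in endodermis and 228, 361 and 307 in cortex on standard medium. Its cortex arrays were lower with salt without overlap. The kinase AT5G11020 differed by 1.68 ± 0.37 (adjusted p = 0.00118).

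The widest difference the other way was in AT1G62510, a lipid transfer protein relative. With salt it was at 11.4, 19.2 and 46.0 in endodermis and 1328, 1262 and 631 in cortex, a difference of -4.73 ± 0.49 (log2, SE, adjusted p = 4.00e-08). On standard medium it was at 170.1, 100.1 and 247 in endodermis and 1331, 1110.5 and 976 in cortex, and the other populations with salt were at 1.32 to 10.3 (median 2.34). Of its 8 differences the 4 of the cortex were called and the 4 of the endodermis were not (adjusted p from 0.0965 to 0.292). AT5G57785, whose product is not named here, was at 136, 159.8 and 101 in endodermis and 2927, 3623 and 891 in cortex with salt (-3.87 ± 0.47, adjusted p = 4.90e-07).

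AT3G26460, of the major latex protein family, was at 36.5, 24.5 and 12.3 in endodermis and 362, 338 and 125 in cortex with salt (-2.76 ± 0.30, adjusted p = 1.03e-07). On standard medium its layers were closer, 97.5, 76.5 and 89.4 in endodermis and 114, 99.1 and 160.2 in cortex. AT5G42250, related to alcohol dehydrogenases, and NANA, an aspartic protease of the chloroplast, were lower in endodermis, with differences of -2.65 ± 0.56 (adjusted p = 0.000874) and -2.01 ± 0.50 (adjusted p = 0.0037). NANA was at 1201, 1274 and 698 in endodermis and 6304, 5472 and 2074 in cortex with salt, against 151, 147 and 349.6 in endodermis and 1672, 1501 and 1569 in cortex on standard medium. Both layers of NANA were higher with salt without overlap.

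**Figure D4:**
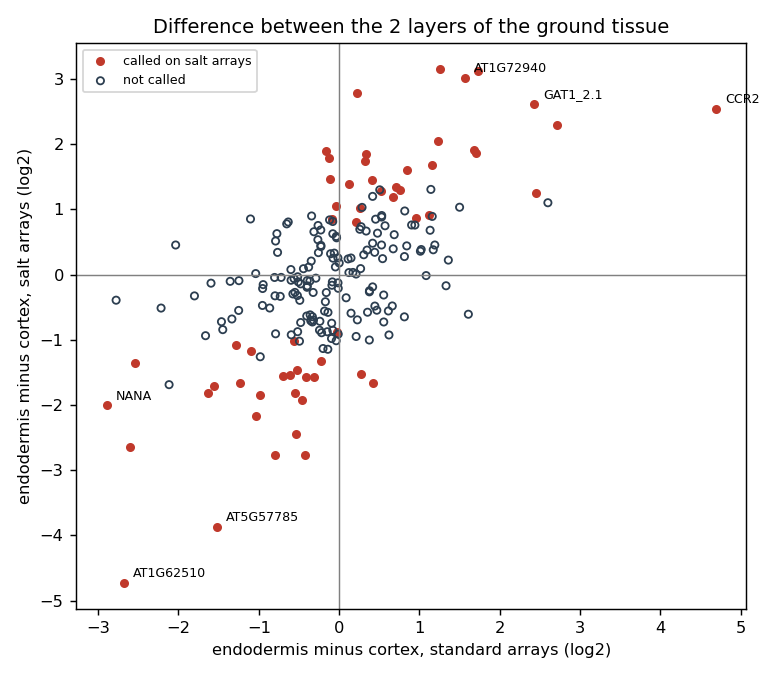
Endodermis minus cortex with salt (y axis, log2) against the same difference on standard medium (x axis, log2) for the 214 members, with filled red points where the difference was called with salt. AT1G62510 lies lowest at -4.73 and CCR2 farthest right, and 157 of the 214 members have the same sign on both media, as did 62.2% of all probe sets.

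The remaining results set salt against standard medium. The choice of members on standard arrays tilts these differences downward in endodermis and cortex and upward in the other populations, so they are given with no test. In endodermis 35 members had all salt arrays below all standard arrays and 27 above, where 7.75% and 7.82% of all probe sets did. In cortex 69 were below and 28 above, where 19.4% and 29.8% of all probe sets did. The median difference was -0.06 in endodermis and -0.23 in cortex, against -0.08 in endodermis and 0.17 in cortex over all probe sets. The values in both layers depended on single arrays. Without endodermis replicate 3 with salt, 72 members lay below and 57 above in endodermis. In cortex, without replicate 3 with salt, the median was 0.05 and 76 members lay above. Fewer arrays also make it easier not to overlap.

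In the other populations the members were more often higher with salt. The epidermis had 114 above and 22 below, where 29.8% and 26.2% of all probe sets lay so. The stele had 67 above and 10 below, where 16.1% and 27.0% did. For protophloem the counts were 70 and 17, where 15.9% and 19.1% did, and for columella 43 and 29, where 9.02% and 20.4% did. Median differences were 0.56 in epidermis, 0.44 in stele, 0.64 in protophloem and -0.03 in columella, against 0.07 in epidermis, -0.23 in stele, -0.07 in protophloem and -0.23 in columella over all probe sets. Without the stele array of replicate 3 on standard medium, the stele median was 0.96 and 139 members lay above. That count is not comparable with the 16.1%, since fewer arrays overlap less and the share of all probe sets was not computed without this array.

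RNA quality moved with some of these groups. The ratio of 5' to 3' signal of the GAPDH control averaged 0.159 in endodermis, 0.150 in cortex and 0.248 in epidermis with salt, against 0.183 in endodermis, 0.444 in cortex and 1.52 in epidermis on standard medium. In protophloem it was 0.162 with salt and 0.0499 on standard medium. Stele and columella stood at 0.239 and 0.173 on standard medium, so the ratio also differed between the populations that the rule compared. With this ratio of each array as a covariate the cortex median was -0.09 and the endodermis median -0.05. Its part in the epidermis and protophloem counts and in the choice of members was not tested. On the salt arrays, which the tests compared, the means of the ratio lay between 0.142 and 0.248 over the 6 populations. Single arrays lay between 0.0713 and 0.406. With the covariate 190 and 72 members were called in place of 188 and 70.

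Margins with salt were below 1.0 for 133 members. Among these the highest of the other populations was at least 1.0 higher with salt for 60 and the lower of the layers at least 1.0 lower for 30. Both applied to 5 members and neither to 38. Over all 214 members the highest other population was at least 1.0 higher for 76 and the lower layer at least 1.0 lower for 49, where 6.22% and 5.87% of all probe sets were. Without the stele array of replicate 3 on standard medium these counts were 84 and 49, and the members with margins below 1.0 divided into 63, 30, 5 for both and 35 for neither. Without the cortex array of replicate 3 with salt 126 had margins below 1.0, divided into 59, 29, 5 and 33. The highest of the others on standard medium was the stele for 115 members, which was 49 without its replicate 3. UGT73B1 and GTR1 were of the first kind and AT3G05150 of the second.

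**Figure D5:**
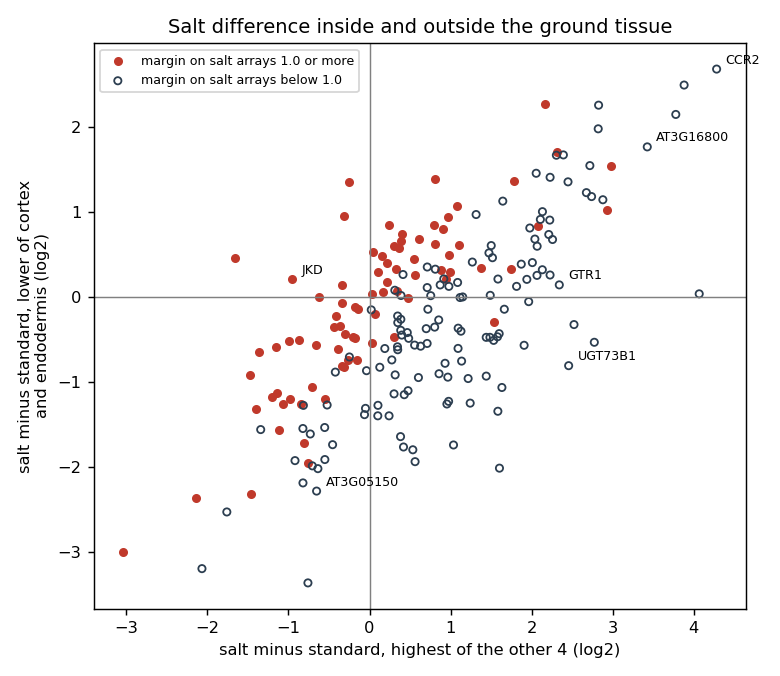
Salt minus standard medium for the lower of endodermis and cortex (y axis, log2) and for the highest of the other 4 populations (x axis, log2), for each of the 214 members. Filled red points keep a margin of at least 1.0 with salt. UGT73B1 and GTR1 lie to the right, at -0.81 and 0.14 on the y axis, AT3G05150 lies low on the left, and CCR2 is high on both axes.

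The same rule was applied to the other 14 pairs of populations. On the salt arrays it gave 195 probe sets for endodermis and cortex, and 81 passed on both media, which was 41.5% of the salt set and 37.9% of the standard set. For the vascular pair, stele and protophloem, 50 passed on both, 31.8% of its 157 with salt and 50.5% of its 99 on standard medium. For the outer pair, epidermis and columella, 91 passed on both, 39.7% of 229 with salt and 58.0% of 157 on standard medium. The share of the standard set still above all other populations with salt was 77.1% for the ground tissue, 91.9% for the vascular pair and 84.1% for the outer pair. These shares were not tested against each other. Without the cortex array of replicate 3 with salt, 230 passed for the ground tissue with salt and 88 on both media.

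Of the 9 listed regulators of the ground tissue, 3 had a probe set naming 1 gene. All 3 were above the mean of the others with salt, where 22.6% of all probe sets tested were called so. Besides JKD these were the related zinc finger gene AT3G45260 (BIB), at 1.00 (log2, adjusted p = 1.91e-05), and the GRAS factor AT5G41920 (SCL23), at 1.18 (adjusted p = 2.01e-05). BIB missed membership with a standard margin of -0.03. Its signals were low, 51.8 ± 20.4 in endodermis and 48.5 ± 25.1 in cortex with salt (mean ± SD, n = 3). On standard medium it was 30.7 ± 4.62 in cortex and 31.5 ± 3.81 in protophloem. SCL23 had signals of 145 ± 91.7 in endodermis and 21.3 ± 10.2 in cortex with salt (mean ± SD, n = 3), and a standard margin of -0.07. With salt it was at 22.1 ± 7.67 in stele and 24.4 ± 8.62 in protophloem, so its cortex mean was not above these. Its margin with salt was -0.13, and endodermis was above cortex by 2.00 (log2, adjusted p = 3.87e-05). Among 9 listed Casparian strip genes 1 was tested, the receptor kinase GSO1, also called SGN3. It was at 5939 ± 1819.7 in endodermis and 997 ± 176 in cortex with salt, against 4051 ± 1166 in endodermis and 502 ± 121 in cortex on standard medium. Its standard margin of 0.64 kept it out of the set, and with salt the margin was 1.45. None of 9 suberin genes had such a probe set.

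Of 4 listed endodermis markers 1 had a probe set naming 1 gene, and of 2 for the quiescent centre 1 did. The endodermis marker, AT4G28100, known as EN7, was a member. Its signal with salt was 326, 258 and 294 in endodermis and 172, 131 and 178 in cortex, against 24.8 to 99.4 (median 44.8) in the others (1.87 ± 0.15, adjusted p = 5.33e-11). On standard medium its layers overlapped, 365, 457 and 520.0 in endodermis and 417, 368 and 363 in cortex. The quiescent centre gene AGL42 was above the mean of the other populations by 1.88 with salt (adjusted p = 1.56e-08), with 182 ± 68.8 in endodermis and 357 ± 198 in cortex. The layers were not called different with salt (-0.83, adjusted p = 0.0617). On standard medium it was at 153 ± 23.9 in endodermis, 132 ± 9.15 in cortex and 144 ± 50.8 in protophloem. With a standard margin of -0.07 it is not a member. Of the listed markers, 1 of 5 for the epidermis, 0 of 4 for the root cap, 2 of 4 for the stele and 1 of 5 for the phloem had a probe set naming 1 gene, and the cortex gene AT1G62500 did not pass the filter. Those tested were lower in the ground tissue or not called. The stele gene PHV was at -1.29 (adjusted p = 1.34e-05) and the phloem gene OPS at -0.86 (adjusted p = 0.00182). The stele gene LHW was at -0.26 (adjusted p = 0.352) and the epidermis gene EXPA7 at 0.72 (adjusted p = 0.386). With salt EXPA7 had its highest mean in cortex, 376 ± 222, against 319 ± 370 in epidermis and 340 ± 538 in stele. Without the cortex array of replicate 3 with salt LHW was called lower (adjusted p = 0.0481).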

How the data were processed

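Total RNA of sorted protoplasts was amplified with a two-cycle protocol and hybridised to Affymetrix arrays, per the labels' protocols. The authors deposited linear intensities from MAS5, per the submitters' processing notes. For its version and scaling, the sources used here give nothing. On each of the 36 arrays the mean after trimming 2% at each end lay between 250.02 and 250.03. Detection calls were not used here, so low signals could not be told from background. Depth has no meaning for arrays, and their number limits the precision.

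Of 22810 probe sets 64 controls were left out. Values were taken as log2(signal + 16), which understates differences of low signals. Probe sets above the 40th percentile of their array (32.4 to 66.3) on at least 3 arrays were fitted with 12 group means on 36 arrays in limma 3.58.1, R 4.3.3 (lmFit, eBayes with trend, 24 residual degrees of freedom). P-values are two-sided and were adjusted by Benjamini-Hochberg over 17630 probe sets, each contrast by itself. The code was tested on simulated data. Tables and figures used Python 3.11.15, pandas 2.3.3, numpy 2.4.6 and matplotlib 3.10.9.

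The members, the marker and pathway lists and the product groups were chosen with earlier results of these data known. Genes were named by rule: the 24 members with 1 gene and the widest standard margins, the 5 largest called endodermis minus cortex differences each way, the 3 smallest and 3 largest margins with salt, the members and probe sets nearest the threshold, and list members. Other names were chosen after their values were seen. Names came from the platform annotation and RefSeq (TAIR10.1), which held 96 of the 97 member genes. Promoter motifs were not analysed here, and related genes may share a probe set. The labels name no shared planting, and the main fit did not pair arrays by replicate number. Over 66 pairs of groups the correlation of same-numbered arrays, over all probe sets tested, was -0.14 to 0.34 (median 0.07). Over the members alone, replicate 3 was most often the highest array in each of the 6 standard groups, for 84 to 195 members. It was highest there for 22.7% to 44.8% of all probe sets. A shift of the members shared by same-numbered arrays was not tested.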

Additional observations from a re-analysis of the deposited data

Results flagged for a closer look

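A pair of members had salt arrays that did not overlap the standard arrays and lay on opposite sides of them in the layers of the ground tissue. Both were lower in cortex and higher in endodermis. Over all probe sets tested, 19.4% lay wholly below in cortex and 7.82% wholly above in endodermis. The share with both was not computed, so whether 2 of 214 members exceeds the background is not known. GH3.3, which conjugates auxin, differed between salt and standard medium by 0.91 in endodermis and -0.79 in cortex (log2). A probe set with no gene assigned differed by 0.47 in endodermis and -0.77 in cortex. The difference between the layers in their response was not tested, because the standard arrays chose both probe sets.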

How the results depend on the processing

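A margin of 1.5 left 98 members. A pseudocount of 1 gave 284 members and one of 64 gave 151, quantile normalization 255. Pseudocounts, quantile normalization, no filter on low values, salt arrays alone and the GAPDH ratio as a covariate kept the 6 counts of calls within 1.5 times. No tested result reversed. With the replicate number as a block, 191 members were above the mean of the others (188 without), 74 above each (70), 113 above each in cortex and 96 in endodermis (109 and 93), 34 higher and 30 lower in endodermis than cortex (30 and 27); the 61 differences of single genes run under every alternative kept their calls under it. Single arrays left out gave 177 to 269 members, 183 to 193 above the mean of the others, 45 to 76 above each, 68 to 100 above each in endodermis, 81 to 121 in cortex, and 21 to 35 higher and 15 to 46 lower in endodermis than cortex. Counts of members whose salt arrays lay wholly above the standard arrays ran over 28 to 57 in endodermis and 28 to 76 in cortex, and below them 39 to 72 in endodermis and 70 to 83 in cortex. The highest of these counts came without endodermis replicate 3 (57 and 72) and without cortex replicate 3 (76), all with salt; fewer arrays overlap less by construction. The cortex median ran over -0.36 to 0.05 and the endodermis median over -0.18 to 0.00, so neither had a settled sign. Chosen after seeing the data, leaving out the stele array of replicate 3 on standard medium or the cortex array of replicate 3 with salt gave 67 to 139 members higher with salt in stele, stele as the highest other population for 49 to 115, and 10 lower in stele. Of these 61 differences, those of AT1G72920 (11 settings) and GTR1 (6 settings) lost their calls and that of LHW gained one (1 setting). The 8 differences of each member were also recomputed. Among members named above, all 8 stayed called throughout for JKD, AT5G11020, AT3G32030, AT5G36160, AT1G06640, AT5G39580, AT5G04120, AT3G22240, AT4G03610 and AT4G28100. Further members not named above, with and without a gene, kept all 8 as well, among them AT1G10090, AT1G05710 and AT4G18930. For other named members, 4 to 7 were called for GH3.3 (6) and 3 to 5 for UGT73B1 (4). The number ran over 4 to 7 for AT3G05150 (6) and AT1G62510 (4). It ran over 2 to 4 for GTR1 (3), 2 to 6 for AT5G12340 (3) and 2 to 5 for AT5G02230 (3).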
